A study of Homo sapiens with 3 samples.

Results

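The olfactory receptor genes of human chromosome 11 were described here by the peaks of acetylated histone H2A around them. With earlier results of these data known, they were chosen by a rule of name and place: protein-coding genes on chromosome 11 whose symbol is OR followed by digits, letters and digits. Of 171 such genes in the gene table, 168 had a position on the chromosome itself, out of 19866 protein-coding genes in all. The other 3 (OR8U8, OR8U9 and OR9G9) stood in the table out of the order of the chromosome, as genes on other scaffolds do, so their coordinates could not be set against the peaks and they were not counted. The cells were UM-UC-3, an established human bladder carcinoma line, exposed to cigarette smoke media (10% for 3 days per the labels) or to air, with 1 library each immunoprecipitated with an antibody against H2A acetylated at lysine 130. An input library was listed, and its values were not used here. The treatment text stands on all 3 samples, so the groups follow the treatment label alone. Each group is a single library, so differences below stand without replicates and without tests.

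Olfactory receptors are G protein-coupled receptors that bind odorants at the cilia of olfactory sensory neurons. Each such neuron chooses a single receptor gene, and the genes lie in clusters that are packed in silent chromatin in other cell types. Class I receptors, related to those of fish, form a single cluster on the short arm of chromosome 11, while class II receptors are spread over many clusters and chromosomes. A few receptors are known outside the nose, OR51E1 and OR51E2 in prostate among them.

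Joining members no more than 500 kb apart gave 10 clusters with 167 members over 5.85 Mb, and OR2AT4 stood alone. The members belonged to 11 families, 55 of them to class I and 113 to class II. Their spans were short, with a median of 1.10 kb (1103 bases) against 18.2 kb for the 1129 other protein-coding genes of the chromosome. Many gene models cover little more than the single coding exon: 74 of the 168 were under 1 kb long. The smoke list held 1223 peaks on chromosome 11 of 23975 in all, and the air list 1313 of 27010. The depth of sequencing is unknown. Fold and −log10 q of a peak are the authors' own values throughout. Intervals are 95% Wilson intervals, which cover counting error only and treat peaks or genes as independent, although neighbouring members share peaks.

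Within 20 kb of the gene, 79 of 168 members had a smoke peak (47.0%, interval 39.6 to 54.6) and 86 had an air peak (51.2%, 43.7 to 58.6). Among the other protein-coding genes of the chromosome the shares were 35.6% and 35.7%, and among all protein-coding genes 37.7% and 39.8%. Both libraries had a peak at 43 members (25.6%, 19.6 to 32.7), against 20.8% of the other genes. Smoke alone had one at 36 members, air alone at 43, and neither at 46. A peak of either library lay at 122 members (72.6%, 65.4 to 78.8), against 50.5% of the other genes. Other genes with a peak in 1 library alone were not counted. Because other genes are longer and so have wider windows, windows of 20 kb to either side of the gene midpoint were also counted. In these equal windows 42.3% of members had a smoke peak (35 to 49.8) and 47.0% an air peak (39.6 to 54.6), against 20.9% and 21.3% of the other genes and 20.9% and 23.3% of all genes. Both libraries had one at 21.4% of members, 6.73% of the other genes and 7.02% of all. Over the gene itself the order was the opposite, with 10 members in smoke (5.95%) and 11 in air (6.55%), against 21.2% and 20.5% of the longer other genes. Within 5 kb, 21.4% of members had a smoke peak and 20.2% an air peak, against 24.1% and 24.7% of the other genes. The higher share of receptors around the gene was thus seen at 20 kb and not at 5 kb. Windows of 5 kb are also wider for the longer other genes, and equal windows of that size were not counted. Distance and gene length can therefore not be told apart here. At the edge of the window, the smoke peak just inside was 19.8 kb from OR5D18 and the one just outside 20.1 kb from OR51F1, and in air these were 19.8 kb from OR8D1 and 20.2 kb from OR5B2.

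**Figure D1:**
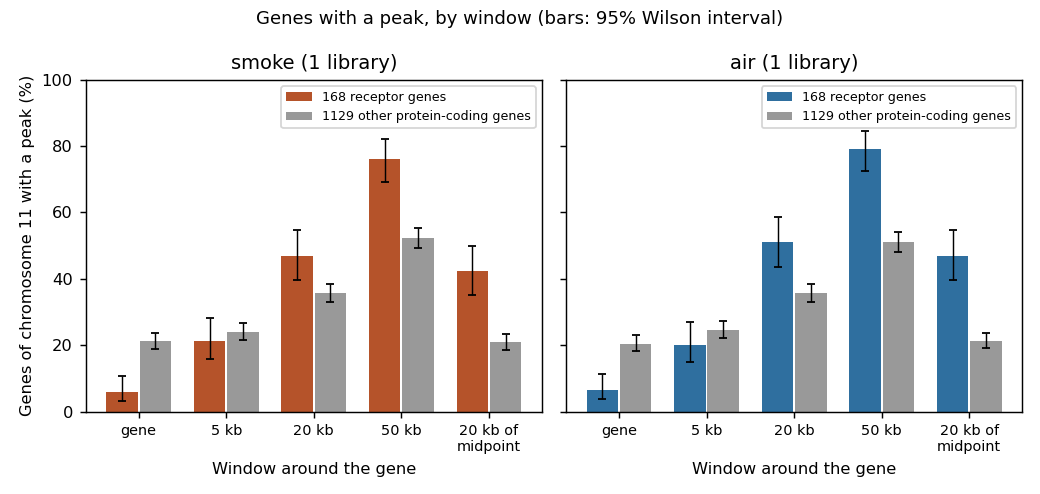
Share of chromosome 11 genes with at least 1 peak, by window around the gene, in the smoke and air lists. Coloured bars are the 168 receptor genes, grey bars the 1129 other protein-coding genes, and error bars the 95% Wilson interval. Receptors are lower over the gene itself, slightly lower within 5 kb (21.4% and 20.2%, with overlapping intervals) and higher within 20 kb (47.0% and 51.2%) and 50 kb. Except around the midpoint, windows are wider for the longer other genes.

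Neighbouring members shared part of these peaks. The 79 members in smoke rested on 75 peaks, of which 46 lay within 20 kb of a single member, and the 86 members in air on 69 peaks, of which 32 did. A single peak lay within 20 kb of up to 4 members in either library. No member had more than 4 smoke or 3 air peaks in its window. Most of those with any had 1, namely 49 members in smoke and 61 in air.

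By length of sequence, the clusters held 83 smoke peaks (14.2 per Mb) and 85 air peaks (14.5 per Mb). The rest of chromosome 11 held 8.82 and 9.50 per Mb. The clusters were therefore 1.61 times as dense in smoke (1.29 to 2.01) and 1.53 times in air (1.23 to 1.91). Against the 1 Mb to either side of each cluster the ratios were 1.67 and 2.03, and outside protein-coding gene spans 1.82 and 1.54. Inside protein-coding gene spans they were 0.976 in smoke (13 peaks in the clusters) and 1.43 in air (20 peaks). The smoke excess was thus not seen inside gene spans. The rest of the chromosome includes a stretch of 4.13 Mb with no peak in either list (50.4 to 54.6 Mb). Leaving it out gave 1.56 and 1.48. The smoke ratio shrank with stricter thresholds. Counting only peaks with a −log10 q of at least 2, the ratio was 1.10 in smoke (0.589 to 2.05, 10 peaks in the clusters) and 1.48 in air (0.966 to 2.28, 22 peaks). At a fold of at least 5 the clusters held 1 smoke peak, a ratio of 0.311 (0.0544 to 1.78), and 10 air peaks, a ratio of 1.77 (0.939 to 3.33).

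**Figure D2:**
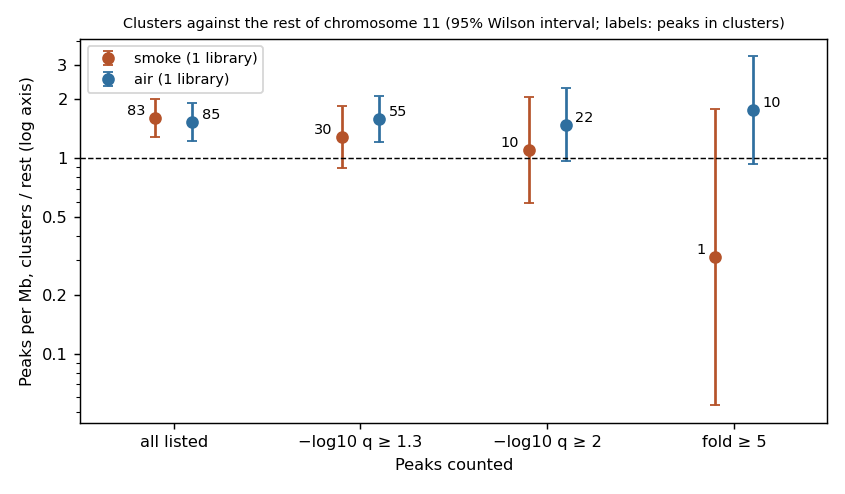
Peaks per Mb of the clusters divided by peaks per Mb of the rest of chromosome 11 (log axis), for all listed peaks and for stricter thresholds on the authors' values. Points are the ratio in each library, bars the 95% Wilson interval, and labels the number of peaks in the clusters. The smoke ratio goes from 1.61 over all peaks to 1.10 at a −log10 q of at least 2, while the air ratio goes from 1.53 to 1.48.

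The excess lay in the class II clusters. The class I cluster, 55 genes of families 51, 52 and 56 from OR52B4 to OR52W1 (4.37 to 6.20 Mb), held 15 smoke and 18 air peaks, 8.18 and 9.82 per Mb, which is 0.928 and 1.03 times the rest of the chromosome. The 9 class II clusters together held 68 smoke and 67 air peaks, 16.9 and 16.7 per Mb. Of class I members 25.5% had a smoke peak within 20 kb (15.8 to 38.3) and 29.1% an air peak (18.8 to 42.1). Of class II members 57.5% (48.3 to 66.2) and 61.9% (52.7 to 70.4) did. The intervals of the classes do not overlap in either library, but they treat members as independent, and class I is a single cluster. Of the 65 class II members with a smoke peak, 34 were among the 46 from OR4A16 to OR5AK2. Of the 70 with an air peak, 32 were. Pooled class II shares were not counted without that cluster, so the gap between the classes may rest on it. Among the other class II clusters, only that from OR6X1 to OR8A1 had a smoke interval above that of class I (43 to 80.3). For air, only that from OR2AG2 to OR2D3 did (52.9 to 97.8). These other clusters have at most 22 members, so their intervals are wide. The longest stretch without a peak of either list inside a cluster, 224 kb, also lay in the class I cluster.

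Among class I genes, peaks lay within 20 kb of 6 of 23 family 51 members in smoke and 9 in air, of 5 of 25 family 52 members in each, and of 3 and 2 of 7 family 56 members. OR51E1 held an air peak inside its span with a fold of 4.06, 11.2 kb downstream of the gene start, and its nearest smoke peak was 24.3 kb away. OR51E2 had no peak within 20 kb in either list, with the nearest smoke peak 50.9 kb and the nearest air peak 24.8 kb away. OR51B4, a receptor studied in colon cancer cells, had 1 smoke peak, 19.7 kb away, and no air peak. OR51B5, whose annotated span of 165 kb covers other receptors, held 1 smoke peak (fold 3.63) and 1 air peak (fold 3.48). The smoke peak also lay over OR51M1. OR56A3 held an air peak of 5.22 fold (−log10 q 2.49), and had no smoke peak nearer than 29.9 kb.

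The cluster from OR4A16 to OR5AK2 (55.3 to 57.0 Mb, 46 members) held the most peaks, 37 in smoke and 30 in air, or 22.5 and 18.2 per Mb. A smoke peak lay within 20 kb of 34 of its members and an air peak of 32, and only 2 members had neither. Without this cluster the ratio to the rest of the chromosome was 1.24 in smoke and 1.38 in air. Of the 122 remaining members, 45 and 54 had a peak within 20 kb (36.9% and 44.3%, against 35.6% and 35.7% of the other genes). The smoke share was then near that of other genes, whose windows are wider. Members without this cluster were not counted around the midpoint. The cluster was left out for its many peaks, so lower values were likely from the choice alone. The other class II clusters then still held 13.1 smoke and 15.6 air peaks per Mb. Receptors of family 8, which lie in this cluster and in the one near the end of the long arm, had a smoke peak at 18 of 22 members and an air peak at 11, all of them with smoke peaks too. In family 5, 24 of 34 members had a peak in each library, 17 of them in both. Family 4 had 9 of 24 members in smoke and 16 in air.

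Across the 10 clusters, the air density was above that of the rest of the chromosome in 9 and the smoke density in 5. For air these include near ties with the 9.5 per Mb of the rest. They are the class I cluster (9.82) and the pair OR4C46 and OR4A5 (9.54, on 1 peak). In smoke the class I cluster was just below the rest (8.18 against 8.82). The cluster from OR6X1 to OR8A1 (22 members, 124 to 125 Mb) held 14 smoke and 11 air peaks, and 14 of its members had a smoke peak against 7 with an air peak. The cluster from OR5AN1 to OR10V1 (8 members) went the other way, with 1 smoke and 5 air peaks and with 1 and 6 members. Between the outer members of the cluster from OR2AG2 to OR2D3 (8 members) there were 1 smoke and 4 air peaks, and 2 further smoke peaks lay 6.87 and 10.1 kb outside OR2AG2. Inside the cluster from OR5P2 to OR10A3 (4 members) there were 1 smoke and 3 air peaks, the smoke peak 44.2 kb from the nearest member. The pair OR4C46 and OR4A5 had 4 smoke peaks and 1 air peak between them, while the sequence from OR4C13 to OR4C12 held none, with a smoke peak 9.77 kb outside OR4C12. These are small numbers. Smoke peaks made up 49.4% of all peaks in the clusters (41.9 to 56.9) and 48.1% in the rest of chromosome 11 (46.1 to 50.2). In none of the 9 clusters with peaks did the interval of the smoke share leave out the share of the rest. Among peaks with a −log10 q of at least 1.3 the smoke share was 35.3% in the clusters and 40% on the whole chromosome.

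**Figure D3:**
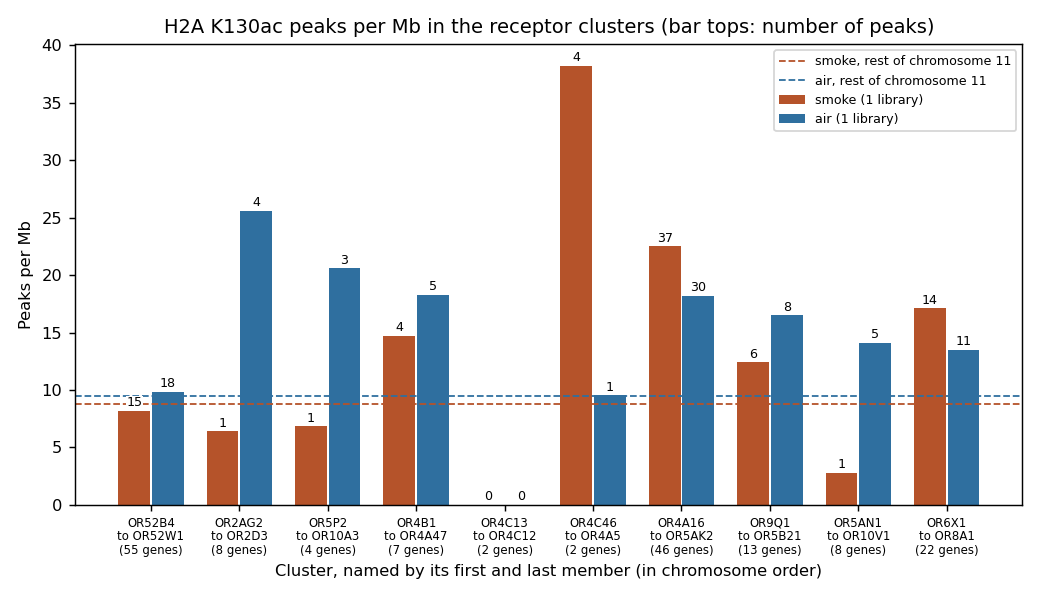
Peaks per Mb in each of the 10 clusters, named by their first and last member, with the number of peaks above each bar and the density of the rest of chromosome 11 as dashed lines. The class I cluster (OR52B4 to OR52W1) sits at the level of the rest, and the cluster from OR4A16 to OR5AK2 holds 37 smoke and 30 air peaks. The clusters with 2 to 8 members rest on 0 to 5 peaks per library.

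Single genes had few peaks within 20 kb: 89 of the 168 members had none in smoke and 82 none in air. Most genes below were picked for their many peaks in one library, so few peaks in the other were likely from the choice alone. OR4C46 had the most smoke peaks within 20 kb, 4, and no air peak within 51.4 kb. Its smoke peaks had folds from 3.22 to 4.30, around the cluster median of 3.76, and it lies next to the 4.13 Mb stretch without peaks. OR4C3 had 3 smoke peaks, the nearest 0.930 kb away, and 1 air peak. OR5B21, OR8D4 and OR8I2 also had 3 smoke peaks and 1 air peak each, with the nearest smoke peak 1.96, 7.70 and 8.07 kb away. In air OR9Q1, with an annotated span of 158 kb, had 3 peaks over the gene with folds of 2.87, 3.39 and 5.05, and 1 smoke peak over it with a fold of 3.22. OR5M1 and OR4A15 had 3 air peaks each and no smoke peak within 20 kb. The nearest air peak to OR5M1 was 0.448 kb away. OR6A2 held 2 air peaks over its span of 7.95 kb, with folds of 4.64 and 4.06, and its nearest smoke peak was 33.0 kb away. OR2AT4, the member outside the clusters and a receptor known from keratinocytes, had 1 air peak 16.2 kb away and no smoke peak within 161 kb.

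A peak of either list overlapped the span of 19 members (11.3%, against 29.6% of the other genes). Of these, 8 had only a smoke peak, 9 only an air peak, and OR51B5 and OR9Q1 had both. Both libraries thus had a peak over 1.19% of members, against 12.1% of the longer other genes. Most of these spans are longer than the coding exon, and whether the peaks lie in introns or exons was not tested. Spans under 1 kb were covered at 3 members: OR4S1 by a smoke peak of 535 bases (fold 3.76), and OR5T3 and OR5AK2 by air peaks of 582 and 270 bases (folds 4.06 and 3.48). Peak density inside member spans was 8.86 per Mb in smoke (9 summits) and 12.8 in air (13 summits). Inside member spans of up to 20 kb it was 11.1 (7 summits) and 12.7 (8 summits). In the cluster sequence outside member spans it was 15.3 and 14.9. The remaining members with a peak over the span were OR52K1, OR52N4, OR10A2, OR5AS1, OR8J1 and OR8D1 in smoke, and OR5P3, OR8J3, OR5A1 and OR8G1 in air.

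RefSeq promoter windows (GRCh38.p14, 250 bases before to 50 after the gene start) were found for 135 members. Peaks overlapped 2 of them, both in air. The same count was not made over other promoters, so 2 of 135 cannot be called few or many. These 2 windows are shown because no other window of the 135 was overlapped, with the bases under the peak in capitals. At OR2D2, chr11:6892451-6892750 on the minus strand, 156 bases lay under a peak with a fold of 4.06, which began 76 bases upstream of the gene and did not cover its start. At OR5AK2, chr11:56988664-56988963 on the plus strand, 162 bases lay under a peak with a fold of 3.48, which covered the start. The −log10 q was 1.5 for the OR2D2 peak and 1.11 for the OR5AK2 peak. The OR5AK2 peak thus fell short of a −log10 q of 1.3, a q of 0.05.
OR2D2: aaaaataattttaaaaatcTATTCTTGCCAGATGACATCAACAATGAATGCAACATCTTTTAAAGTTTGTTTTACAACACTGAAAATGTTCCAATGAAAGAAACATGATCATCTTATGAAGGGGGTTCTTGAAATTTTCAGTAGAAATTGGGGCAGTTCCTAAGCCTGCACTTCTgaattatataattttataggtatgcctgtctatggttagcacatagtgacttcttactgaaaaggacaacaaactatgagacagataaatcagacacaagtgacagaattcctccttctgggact
OR5AK2: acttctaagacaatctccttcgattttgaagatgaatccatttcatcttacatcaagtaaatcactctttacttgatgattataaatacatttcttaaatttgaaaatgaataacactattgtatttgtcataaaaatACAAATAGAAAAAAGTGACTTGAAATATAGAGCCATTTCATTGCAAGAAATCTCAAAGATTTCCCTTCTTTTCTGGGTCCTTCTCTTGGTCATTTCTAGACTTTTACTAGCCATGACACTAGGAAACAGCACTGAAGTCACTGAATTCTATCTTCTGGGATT
Their GC content was 33.7% and 31.0%, both below the members' median of 37.0%, and that of OR5AK2 also below the lower quartile of 32.8%. At 64 of the 135 members the gene model begins with ATG, so there the window lies before the start codon and not before a mapped start of transcription.

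Peaks did not gather on one side of the starts. Within 20 kb of the 135 starts with known strand there were 93 pairs of smoke summit and gene, 48 upstream and 45 downstream, and 84 air pairs, 42 on each side. Within 1 kb of a start lay 1 smoke and 4 air summits. In the upstream windows, the motif TAATTA, the core bound by homeodomain factors such as LHX2, was present in 24.4% of members (18.0 to 32.3) and in 3.34% of all protein-coding promoters. The motif CCCNNGGG, the core bound by EBF factors, was in 8.15% of members and 21.6% of all, and TATAAA in 35.6% and 9.63%. Both strands were searched, and TAATTA and CCCNNGGG read the same on both. Base composition moves with these shares. Among other protein-coding promoters within the members' quartile range of GC content (32.8% to 42.0%) TAATTA was in 14.9% (12.9 to 17.2), CCCNNGGG in 3.13% and TATAAA in 37.2%, and among members in that range in 20.3% (12.5 to 31.2), 5.80% and 36.2%. Members with a peak of either list within 20 kb held TAATTA in 24.3% and members with none in 25%.

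**Figure D4:**
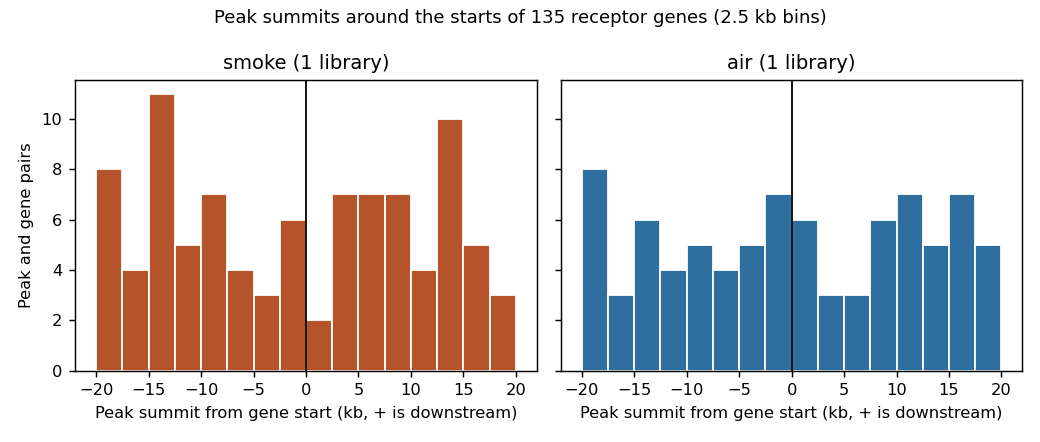
Position of peak summits relative to the starts of the 135 receptor genes with known strand, in bins of 2.5 kb, positive values being downstream. Bars count pairs of summit and gene, 93 in smoke and 84 in air, so a peak near several genes counts more than once. Neither list gathers at the start.

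The density of the clusters can be read against the gene content of the chromosome. In bins of 1 Mb, the 10 bins with 5 or more members held a median of 10 smoke peaks (6 to 24) and 11.5 air peaks (6 to 21). The 14 bins with no member and 20 or more protein-coding genes held medians of 3.5 (0 to 12) and 3 (1 to 11), although the receptor bins held a median of 25 protein-coding genes. The 49 bins with no member and under 5 protein-coding genes held medians of 11 (0 to 23) and 12 (0 to 28). The medians of the receptor bins thus lay close to those of the gene-poor bins and above those of the gene-rich bins. The bin from 56 to 57 Mb, with 27 members, held the most smoke peaks of any bin on the chromosome, 24, and ranked 6 in air with 21. The bins that start at 40, 80 and 81 Mb came close, with 23 smoke peaks each. They hold no member and at most 1 protein-coding gene. The part of gene density in the excess was not tested.

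**Figure D5:**
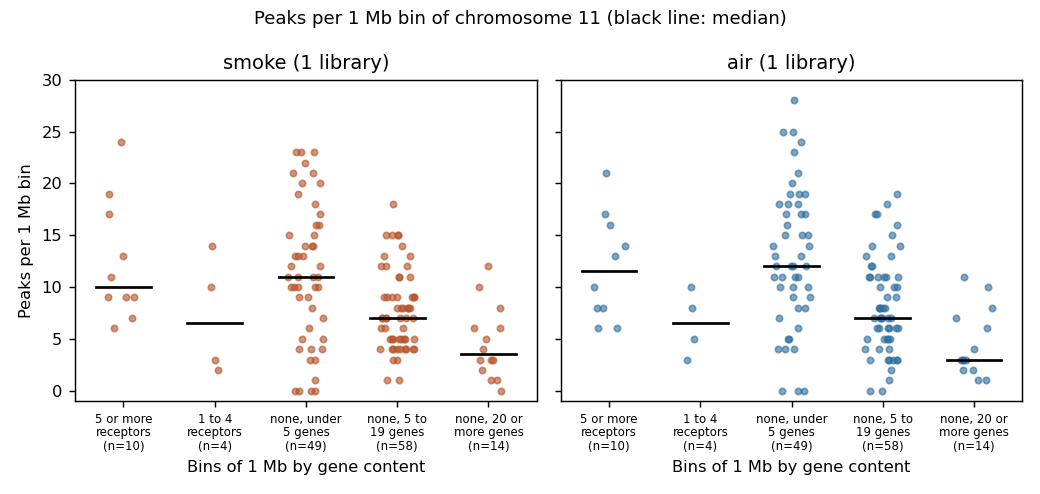
Peaks per bin of 1 Mb on chromosome 11 in smoke and air, with bins grouped by the number of receptor genes or, where there are none, of protein-coding genes. Points are bins and black lines medians. Receptor bins (medians 10 and 11.5) lie near gene-poor bins (11 and 12) and above bins with 20 or more genes (3.5 and 3).

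Genes were also compared by promoter base composition. Promoters of members had a median GC content of 37.0% and those of the other chromosome 11 genes 62.7%. In windows of 20 kb around the midpoint, 54.7% of the 86 members under 40% GC had a smoke peak (44.2 to 64.7) and the same share an air peak. Of the 48 other genes under 40% GC, 31.2% (19.9 to 45.3) and 33.3% (21.7 to 47.5) did. By the window of 20 kb around the gene, in which longer genes have more room, the 49 other genes within the members' quartile range of GC content had a smoke peak in 55.1% of cases and an air peak in 44.9%, and by the midpoint in 34.7% and 32.7%. The smoke share around the gene was above the members' 47.0%, and the air share below their 51.2%. The intervals (41.3 to 68.1 and 31.9 to 58.7) include these values, which are for all 168 members and not for those in that range. Between 40% and 50% GC the shares were 30.2% and 41.9% of 43 members and 32.5% and 27.3% of 77 other genes, with overlapping intervals. Other genes at 60% GC or more had peaks in 19.4% and 18.4% of cases. Class I promoters had a median of 40% and class II promoters of 37.0%. The part of base composition in the excess was not tested.

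Cluster peaks were no stronger than those elsewhere. The median fold was 3.76 in smoke, as in the rest of the chromosome, and 4.06 in air against 3.98. A q of 0.05 or lower was reached by 36.1% of smoke peaks in the clusters (26.6 to 46.9) and 45.2% in the rest (42.3 to 48.1), and by 64.7% (54.1 to 74.0) and 62.2% (59.5 to 64.9) in air. Median widths were 208 and 233 bases in smoke and 284 and 270 in air. The strongest cluster peak in smoke, 26.1 kb from OR4C15, reached 5.37 fold (−log10 q 2.65). The next lay 27.1 kb from OR5D16 (fold 4.78) and 12.5 kb from OR5D13 (fold 4.84, one of 8 tied at a −log10 q of 2.11). In air, peaks nearest to OR52B4 and OR4A16, 23.1 and 9.57 kb away, each had a fold of 5.80, and one 3.37 kb from OR4D11 had a fold of 5.61. Their −log10 q was 3.10, as was that of a peak 2.06 kb from OR6X1.

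Smoke and air peaks overlapped by at least 1 base at 4 places in the clusters, 4.82% of smoke peaks there (1.89 to 11.7) against 1.67% in the rest of the chromosome (1.07 to 2.59). In air the shares were 4.71% (1.85 to 11.5) and 1.55% (0.993 to 2.40), and the intervals overlap. The 4 places lay 0.667 kb from OR52M1 with a smoke fold of 3.14 and an air fold of 3.99, 14.4 kb from OR4C3 (3.22 and 4.06), 26.1 kb from OR4C15 (5.37 and 2.90) and 7.92 kb from OR5I1 (4.30 and 3.48). OR52M1 was the only class I gene among them. The nearest place to OR4C15 was the strongest smoke peak of the clusters. Within 1 kb, 7 smoke peaks (8.43%) and 7 air peaks (8.24%) of the clusters had a neighbour in the other list, against 5.18% and 4.89% in the rest.

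Receptors on other chromosomes, 219 genes, had a smoke peak within 20 kb in 34.2% of cases (28.3 to 40.8) and an air peak in 42.9% (36.5 to 49.5). Around the midpoint the shares were 31.5% and 38.4%, against 20.6% and 23% of the other protein-coding genes of those chromosomes. The chromosome 11 receptors, at 42.3% and 47.0% by that measure, were above them in both libraries, with overlapping intervals (25.7 to 37.9 and 32.2 to 44.9 elsewhere).

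Of 22 genes that serve olfactory signalling and receptor choice, 8 had a smoke peak and 11 an air peak within 20 kb, 6 had both and 9 neither, where 37.7% and 39.8% of all protein-coding genes had one. CNGA4, a subunit of the cyclic nucleotide-gated channel of olfactory neurons, lies beside the class I cluster and had 2 air peaks, the nearest 2.73 kb away, with the nearest smoke peak 181 kb away. OMP, the olfactory marker protein, had none within 20 kb in either list, the nearest being 133 kb away in air. GNAL, the G protein subunit that couples to the receptors, had 3 smoke peaks and 1 air peak. Its effector ADCY3, an adenylyl cyclase, had 1 air peak and none in smoke. RTP1 and RTP2, which help receptors reach the cell surface, had 1 and 3 air peaks, and RTP2 also 1 smoke peak. EBF1 had 3 smoke peaks and no air peak, and LHX2 1 air peak and no smoke peak. Most of these counts come from long genes, for example 9 smoke and 4 air peaks at PDE1C with a span of 811 kb. Peak lists hold no expression level, so the bladder label was not checked by them: of 11 urothelial markers 5 had a smoke and 2 an air peak within 20 kb, where the shares over all protein-coding genes were 37.7% and 39.8%.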

How the data were processed

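ChIP-seq peak lists of 2 libraries (1 smoke, 1 air) in the narrowPeak layout were used as deposited. The submitters' processing notes name the aligner Bowtie2, the callers MACS and MACS2, and the builds hg38 and mm10. For versions, settings and filters, the sources used here give nothing. The deposited score is a whole number of about 10 times the −log10 p. Fold (a ratio), −log10 p and −log10 q were taken per peak from the authors' calling, and served to filter and order peaks of the same list.

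Gene spans came from the RefSeq table (GRCh38.p14, 58961 genes on chromosomes). There, 718 rows that step back in position along a chromosome were taken as lying on other scaffolds and left out. Peaks were placed in clusters by summit and counted at genes by an overlap of at least 1 bp (Python 3.11.15, pandas 2.3.3, scipy 1.17.1). The rest of the chromosome ran to the end of its last gene, at 135 Mb. Promoter sequences are RefSeq's. Counting was checked on simulated peaks. No test was run, with 1 library per group.

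Members, lists and comparisons were chosen with earlier results of these data known. Named genes: members with a peak over the span; per library the 5 with most peaks within 20 kb and those nearest to the 3 strongest cluster peaks; members beside the 20 kb limit and beside shared peaks; families by counts. Any further gene was chosen with its values in view. Alternatives covered windows, thresholds, cluster joining, list size and the reference sequence.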

Additional observations from a re-analysis of the deposited data

How the results depend on the processing

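Members with a smoke peak numbered 79 within 20 kb, 10 over the gene, 36 within 5 kb and 128 within 50 kb. In air they numbered 86, 11, 34 and 133. At 5 kb the members' shares (21.4% and 20.2%) were below those of other genes (24.1% and 24.7%), and at 50 kb (76.2% and 79.2%) above them (52.3% and 51.1%). These windows were wider for the other genes, whose spans are longer. With −log10 q at 1.3 or more there were 34 smoke members (20.2%, against 20.3% of other genes), and a limit of 2 left 9 in smoke (5.36% against 8.24%) and 33 in air (19.6% against 15.3%). A fold of at least 5 left 0 in smoke and 18 in air, against 3.01% and 7.62% of other genes. Without the cluster with most peaks 45 smoke and 54 air members remained to be counted, of 122 (36.9% and 44.3%, against 35.6% and 35.7%). The smoke density ratio of 1.61 was 1.29 and 1.10 with −log10 q limits of 1.3 and 2, 0.311 at a fold of at least 5, which reverses its direction on 1 peak, and 1.24 without that cluster. The air ratio of 1.53 was 2.03 against the 1 Mb to either side. The smoke share of 49.4% was 35.3% and 31.2% at those −log10 q limits and 9.09% at the fold limit, where it was 40%, 37.6% and 34.8% on the whole chromosome. The 1 Mb flanks and leaving out clusters were alternatives chosen after seeing the data. The cause of these shifts was not tested. Depth is unknown, so peaks below the authors' calling limits were not detectable. No paired analysis and no leave-one-out was possible because each group has 1 library.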

Other observations

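The clusters also hold 148 receptor pseudogenes and 20 other protein-coding genes. Pseudogenes had a smoke peak within 20 kb in 49.3% of cases (interval 41.4 to 57.3) and an air peak in 42.6% (34.9 to 50.6), next to 47.0% and 51.2% of the intact receptors. Over the pseudogene itself lay a smoke peak at 4 (2.7%) and an air peak at 1 (0.676%), against 5.95% and 6.55% of the intact receptors. Over all protein-coding genes, which are longer, these shares were 23.7% and 25.1%. Pseudogenes and receptors share their clusters and many of their peaks, so their shares are not independent.

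Of the 20 other genes, 11 had a smoke peak within 20 kb (55%, 34.2 to 74.2) and 9 an air peak (45%, 25.8 to 65.8). Outside the clusters the shares were 35.3% and 35.5% of the other protein-coding genes of the chromosome, inside these intervals. TRIM21, an antibody receptor and ubiquitin ligase at the start of the class I cluster, had 4 air peaks and no smoke peak, 1 of the air peaks over the gene. MMP26, a matrix metalloproteinase in the same cluster, had 2 smoke and 3 air peaks over it. TRIM51, in the cluster from OR4A16 to OR5AK2, had 1 smoke peak nearby and no air peak. VWA5A had 1 air peak over the gene and no smoke peak, and PATL1 had 1 of each over the gene. TRIM6, TRIM22 and OSBP, the oxysterol-binding protein, had none within 20 kb in either list. They were picked with these values in view.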
